A study of Mus musculus with 8 samples.

Results

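Immediate early genes are switched on within minutes of a stimulus, without new protein synthesis, and their transcripts are short-lived. They are induced through kinases that act on the serum response factor SRF, its Elk partners and the CREB family, and many of their products are transcription factors of the AP-1, Egr and Nr4a families or proteins that end the response. In a dissected tissue their level also moves with handling before the RNA is fixed. The genes described here were chosen by symbol. They are Fos, Fosb, Jun, Junb, Egr1, Atf3, Ier2, Nr4a1, Dusp1 and Zfp36, 10 of the 21895 genes in the deposited table, and all 10 passed the filter on low values (a mean of at least 0.5 over the 8 libraries).

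RNA-seq was made from the cochlea of miR-29a wild-type (WT) and miR-29a-/- (KO) mice on the C57BL/6 background, with 4 libraries per genotype. WT1 to WT4 and KO1 to KO4 name them in the order of the labels. No treatment is given, and the study included mice of both sexes. The series text gives an age of 21 days and the methods of the study give 2 months, and age entered no comparison. Cochleae were frozen on dry ice, ribosomal RNA was removed, and the libraries were strand-specific. The level of miR-29a was not analysed here, which leaves the genotype as the labels give it. Values are FPKM, fragments scaled by transcript length and by sequencing depth, which are already per length and can be set side by side between genes. The labels do not say whether a library is 1 mouse or a pool, so the p-values measure the spread between these libraries. Because the whole cochlea was used, fewer cells of a type and less RNA per cell cannot be told apart.

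The labelled tissue carried its markers, since all 9 listed hair cell markers were tested and their summed level was 52.6 to 82.5 FPKM. Neutrophil markers varied widely between libraries. The summed level of 14 neutrophil markers was 81.4 to 10988 FPKM in WT and 1933 to 5716 FPKM in KO, and no neutrophil marker was at 0 in any library. Across all tested genes Pearson's r between libraries was 0.725 to 0.963. WT1 had the lowest value of the 8 libraries for 52.1% of the 14990 tested genes, so the fold change of each of the 10 genes is also given without it. WT2, WT4 and KO4 had correlations of 0.960 to 0.963 with each other, whereas KO4 had 0.924 to 0.946 with the other KO libraries. No batch label was available.

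The deleted microRNA, mmu-miR-29a-3p, is shown here first because the genotype removes it. Its mature sequence lies on the minus strand at chr6:31062673-31062694 (GRCm38.p6, RefSeq) and reads as follows, with the seed, bases 2 to 8, in capitals.
mmu-miR-29a-3p: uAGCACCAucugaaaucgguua

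A stretch that pairs with this seed, TGGTGCT, was found in the 3′-UTR of Fos and Zfp36 and in no other of the 10 genes, when the longest coding transcript of each gene in GENCODE mouse release 21 was read on its sense strand. The same letters occur in 15.8% of the 14782 tested genes with an annotated 3′-UTR. Zfp36 carried 2 of them, which is the case for 2.65% of these genes at 2 or more. The site in Fos lies at chr12:85476844-85476850 on the plus strand, and those in Zfp36 at chr7:28377409-28377415 and chr7:28377054-28377060 on the minus strand, all on GRCm38. They are printed with 11 bases on each side, the match in capitals.
Fos, positions 386 to 392 of the 3′-UTR: tggaattaaccTGGTGCTggattgtatct
Zfp36, positions 143 to 149: acccatttcccTGGTGCTgggctggggca
Zfp36, positions 498 to 504: cctgagaatccTGGTGCTcaaatttccct

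Neither of these genes with a seed match passed the test between KO and WT, as described below. A match is a description of the letters and not a shown site of action.

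The short life of such transcripts is linked to AU-rich elements in the 3′-UTR, and TATTTAT is a stretch that the Zfp36 protein is known to bind. TATTTAT was present in the 3′-UTR of 6 of the 10 genes, against 30.1% of tested genes, and 3 of the 10 held it more than once, against 10.7%. Zfp36 and Dusp1 had 3 copies each, Fos had 2, and Fosb, Jun and Atf3 had 1. Junb, Ier2, Egr1 and Nr4a1 had 0 copies. The copies of Fos lie at chr12:85477114-85477120 and chr12:85477138-85477144, and 1 of those in Zfp36 itself at chr7:28376977-28376983.
Fos, positions 656 to 662 of the 3′-UTR: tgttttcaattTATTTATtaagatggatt
Fos, positions 680 to 686: ggattctcagaTATTTATatttttatttt
Zfp36, positions 575 to 581: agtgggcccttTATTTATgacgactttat

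Promoter sequences of 300 bases, 250 before and 50 after the start site, were available from RefSeq (GRCm38.p6) for 8 of the genes, Ier2 and Egr1 being the others. The cAMP response element (CRE), TGACGTCA, occurred in full in the promoter of Dusp1 alone, against 1.79% of 32851 promoters of this length. Its core TGACG, on either strand and also counted inside the full element, occurred in 6 of the 8, namely Fos, Fosb, Junb, Atf3, Nr4a1 and Dusp1, against 20.8% of all promoters. A CArG box, the element bound by SRF, occurred in Zfp36 alone of the 8, against 1.63%. Only its strict form (CC, 6 bases of A or T, GG) was searched, and sites outside these 300 bases were not read. These elements are in capitals in the following stretches, where CGTCA is TGACG on the other strand, and Fos, Fosb and Nr4a1 are included because they were highest in the same 3 libraries.
Fos, chr12:85473813-85473839, plus strand: gttccgcccagTGACGtaggaagtcca
Fosb, chr7:19310090-19310116, minus strand: ggagttgcgggTGACGcaagcgcgggg
Nr4a1, chr15:101266795-101266821, plus strand: ccctctccatgCGTCAcggagcgctta
Dusp1, chr17:26508597-26508626, minus strand: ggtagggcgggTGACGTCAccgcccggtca
Zfp36, chr7:28379267-28379296, minus strand: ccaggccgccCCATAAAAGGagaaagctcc

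To determine whether the immediate early genes differed between genotypes, the 14990 genes past the filter were tested with limma on log2(FPKM + 0.1), and a gene was called at an unadjusted two-sided p under 0.05, the threshold of the study. The adjusted p is given for each gene, together with a two-sided exact permutation test of its own 8 values, for which 4 against 4 libraries cannot go below 0.0286 and 3 against 4 cannot go below 0.0571. Of the 10 genes, Junb and Ier2 were called and both were higher in KO, and 0 were lower. Over all tested genes 5.12% were called, 4.61% higher and 0.507% lower in KO. No gene of the 14990 had a Benjamini-Hochberg adjusted p under 0.05, and neither did any of the 10. Their median log2 fold change was 0.25, against 0.10 over all tested genes. For 1 of the 10, Junb, the groups were separate, against 3.5% of all tested genes in either direction and 3.02% with KO higher.

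**Figure D1:**
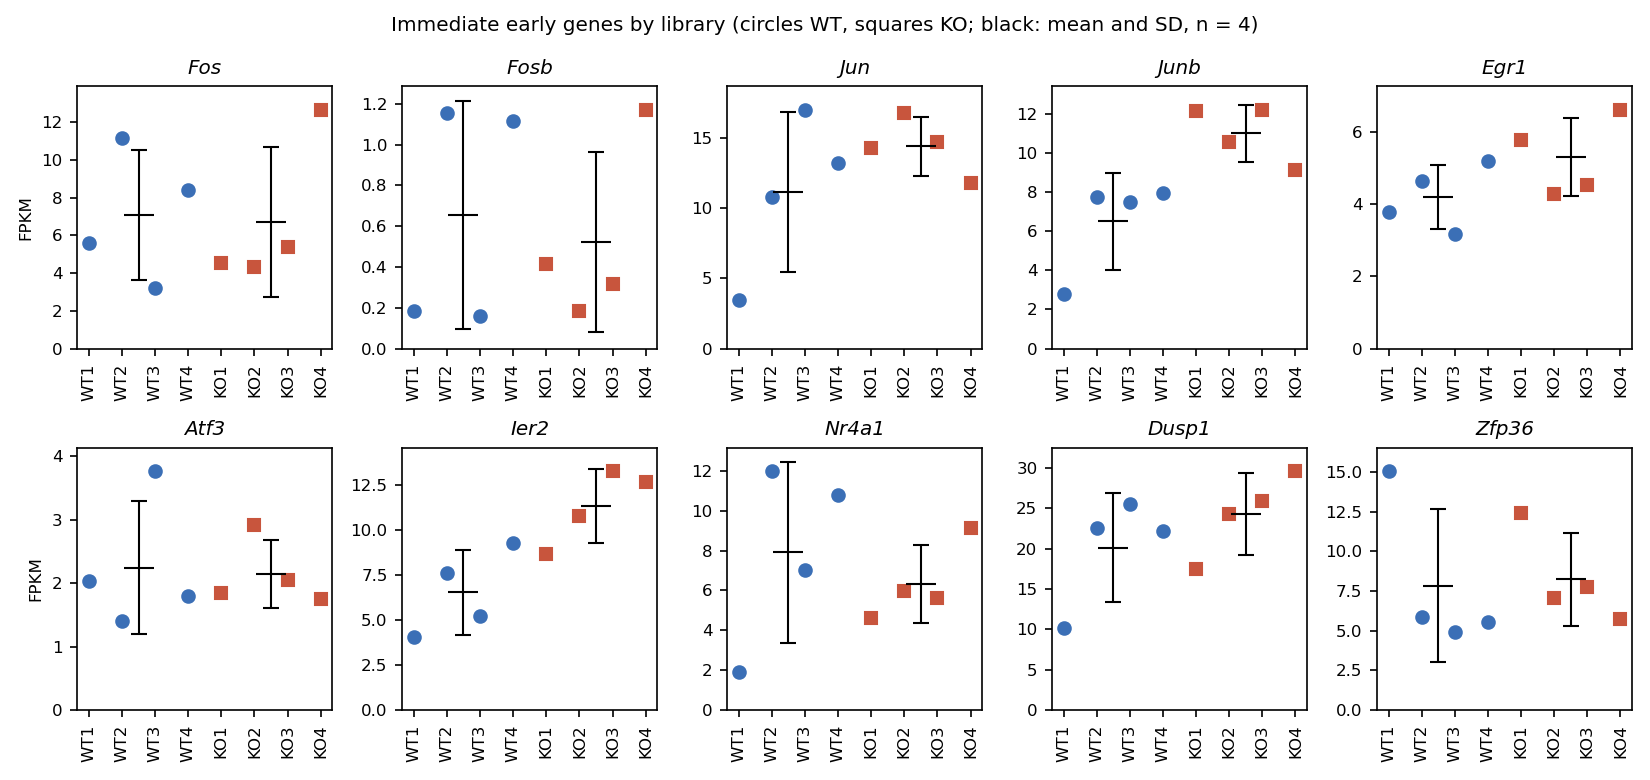
FPKM of the 10 immediate early genes (y axis, from 0) in each of the 8 libraries (x axis), with WT as circles, KO as squares, and the mean and SD of each group in black. Junb is the gene whose 4 KO libraries (9.12 to 12.2 FPKM) all lie above the 4 WT libraries (2.80 to 7.97 FPKM), and Fos and Fosb are highest in WT2, WT4 and KO4.

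Junb (ENSMUSG00000052837) encodes a Jun-family subunit of AP-1 and is annotated to chromosome 8, 84974484 to 84978718 (GRCm38, as for the genes that follow). FPKM values were 2.80, 7.75, 7.47 and 7.97 in WT1 to WT4 and 12.1, 10.5, 12.2 and 9.12 in KO1 to KO4. All KO libraries were above all WT libraries, and WT1 was far below the other WT libraries. WT averaged 6.50 ± 2.47 and KO 10.996 ± 1.47 FPKM (SD, n = 4 each). The log2 fold change was 0.85 (95% interval 0.10 to 1.60, limma adjusted p = 0.947, exact permutation p = 0.0286, the smallest possible). Without WT1 it was 0.49 (limma adjusted p = 0.148, exact permutation p = 0.0571) and the gene was again called, in a fit that called 19.5% of all tested genes. The groups were still separate, as for 11.1% of all tested genes with KO higher in that fit. The call was lost when KO1, KO2 or KO3 was left out, with log2 fold changes of 0.80, 0.87 and 0.80. Across the 17 alternatives tried the adjusted p was 0.148 to 0.9999. Of the 2301 exon bases of Junb, 173 are shared with Prdx2 on the opposite strand, and although the libraries were strand-specific, the strand setting of the counting is not stated, so that reads from this stretch cannot be told apart. The FPKM of Prdx2, a peroxiredoxin abundant in red blood cells, was 80.5 to 107 in WT and 90.6 to 142 in KO.

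Ier2 (ENSMUSG00000053560), an early response nuclear protein, lies on the same chromosome from 84661331 to 84662854, 311629 bases from Junb. Its FPKM was 4.04, 7.61, 5.21 and 9.31 in WT1 to WT4 and 8.66, 10.8, 13.3 and 12.7 in KO1 to KO4. KO2, KO3 and KO4 were above every WT library, and KO1 was below WT4, so the groups overlapped by 1 library. WT averaged 6.54 ± 2.37 and KO 11.3 ± 2.08 FPKM (SD, n = 4 each). The log2 fold change was 0.84 (95% interval 0.21 to 1.46, limma adjusted p = 0.947). The exact permutation test, in contrast to the limma call, missed 0.05 (p = 0.0571). Without WT1 the log2 fold change was 0.63 (limma adjusted p = 0.190, exact permutation p = 0.114). The limma call held in all 17 alternatives, with a log2 fold change of 0.55 to 1.03 and an adjusted p of 0.190 to 0.9999.

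The other AP-1 subunits did not pass the test. Fos (ENSMUSG00000021250) lies on chromosome 12 from 85473890 to 85477273 and Fosb (ENSMUSG00000003545) on chromosome 7 from 19302696 to 19310051. Both encode partners of the Jun proteins. The FPKM of Fos was 5.59, 11.2, 3.23 and 8.39 in WT1 to WT4 and 4.53, 4.30, 5.41 and 12.7 in KO1 to KO4. For Fosb it was 0.185, 1.16, 0.161 and 1.12 in WT and 0.415, 0.183, 0.319 and 1.17 in KO. In both genes WT2, WT4 and KO4 were the 3 highest libraries, and the 2 groups overlapped over nearly their whole range. The log2 fold change was -0.08 for Fos (95% interval -1.11 to 0.95, exact permutation p = 0.886) and -0.14 for Fosb (95% interval -1.74 to 1.46, exact permutation p = 0.971). The intervals include changes in either direction. Without WT1 the values were -0.15 for Fos and -0.48 for Fosb. Fosb was the lowest of the 10 genes, at 0.655 ± 0.557 FPKM for WT and 0.522 ± 0.443 for KO (SD, n = 4 each).

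Jun (ENSMUSG00000052684), the founding member of the Jun family, lies on chromosome 4 from 95049034 to 95052222. Its FPKM was 3.47, 10.8, 17.0 and 13.2 in WT1 to WT4 and 14.3, 16.8, 14.7 and 11.7 in KO1 to KO4. WT1 was the lowest library and WT3 the highest, and the groups overlapped. The log2 fold change of 0.57 (95% interval -0.43 to 1.56, limma adjusted p = 0.947, exact permutation p = 0.343) became 0.09 without WT1 (exact permutation p = 0.686). Of the 3189 exon bases of Jun, 232 are shared with the antisense gene Junos.

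Atf3 (ENSMUSG00000026628), a stress-induced basic leucine zipper factor, lies on chromosome 1 from 191170283 to 191218039. Its FPKM was 2.03, 1.40, 3.76 and 1.79 in WT1 to WT4 and 1.84, 2.92, 2.06 and 1.75 in KO1 to KO4. WT3 was the highest library, and WT2, KO4 and WT4, the libraries in which Fos and Fosb were highest, were the 3 lowest. WT averaged 2.25 ± 1.04 and KO 2.14 ± 0.535 FPKM (SD, n = 4 each), and the 95% interval of the log2 fold change was -0.73 to 0.73. Without WT1 the log2 fold change of Atf3 was -0.015. The sign of the Atf3 difference turned in 8 of the 17 alternatives, including median-ratio scaling and quantile normalization.

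Egr1 (ENSMUSG00000038418), a zinc finger factor on chromosome 18 that responds to growth factors and neuronal activity, had an FPKM of 3.79, 4.64, 3.17 and 5.19 in WT1 to WT4 and 5.77, 4.29, 4.54 and 6.61 in KO1 to KO4. KO1 and KO4 were above every WT library, and KO2 and KO3 were within the WT range. Its log2 fold change was 0.33 (95% interval -0.17 to 0.83, limma adjusted p = 0.947, exact permutation p = 0.200), and 0.29 without WT1. Egr1 was the least variable of the 10 genes among the WT libraries, with an SD of 0.308 on the log2 scale.

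Nr4a1 (ENSMUSG00000023034), an orphan nuclear receptor, lies on chromosome 15 from 101254269 to 101274795. Its FPKM was 1.90, 12.0, 7.05 and 10.8 in WT1 to WT4 and 4.62, 5.96, 5.63 and 9.15 in KO1 to KO4. WT1 was the lowest library, and the other WT libraries were above KO1, KO2 and KO3. The difference depended on WT1. Over all 8 libraries the log2 fold change was -0.08 (limma adjusted p = 0.991, exact permutation p = 0.943). Without WT1 it was -0.65 and limma called it lower in KO (adjusted p = 0.231, against a range of 0.231 to 0.9999 over the 17 alternatives), while the exact permutation test gave p = 0.114. In that fit 7.4% of tested genes were called lower in KO and 12.1% higher.

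**Figure D2:**
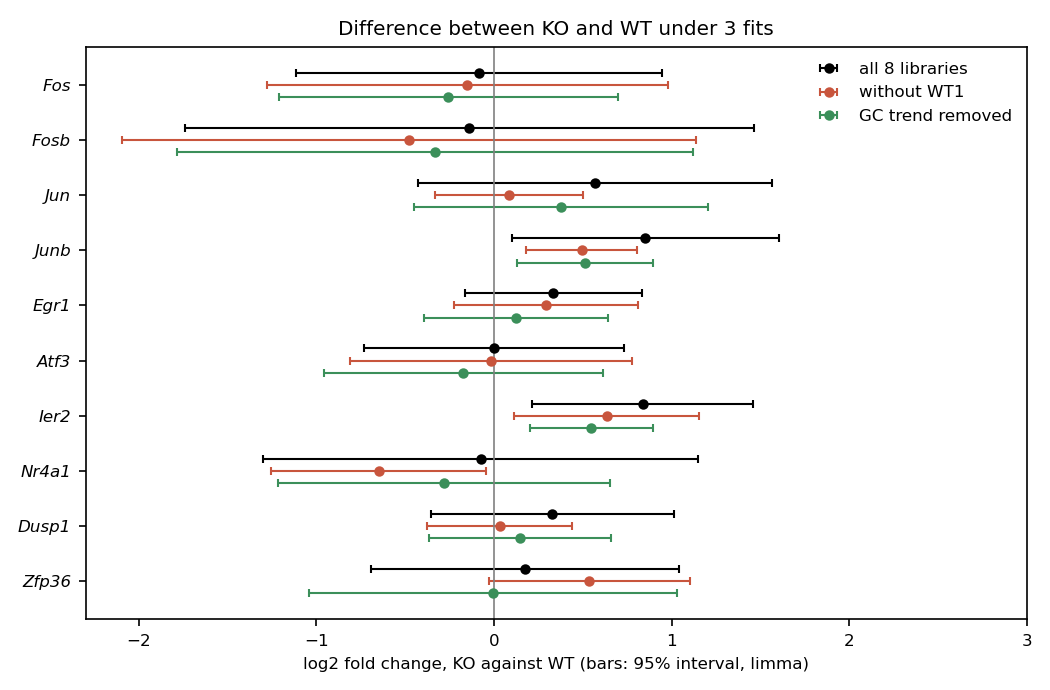
Log2 fold change of KO against WT (x axis) for each immediate early gene (rows), with its 95% interval from limma, over all 8 libraries (black), without WT1 (red) and after a trend with GC content was removed from each library (green). The intervals of Junb and Ier2 lie above 0 in all 3 fits, and that of Nr4a1 lies below 0 in the fit without WT1.

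The remaining genes act against the response. Dusp1 (ENSMUSG00000024190), a phosphatase that inactivates mitogen-activated protein kinases, lies on chromosome 17 from 26505590 to 26562128 and had the highest level of the 10 genes. Its FPKM was 10.2, 22.6, 25.5 and 22.1 in WT1 to WT4 and 17.5, 24.3, 25.9 and 29.6 in KO1 to KO4. WT1 was again the lowest library, and the other 7 lay between 17.5 and 29.6 FPKM. Over all libraries Dusp1 had a log2 fold change of 0.33 (95% interval -0.36 to 1.01, exact permutation p = 0.429), and without WT1 it was 0.03 (exact permutation p = 0.857).

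Zfp36 (ENSMUSG00000044786), which encodes tristetraprolin and promotes decay of transcripts with AU-rich elements, lies on chromosome 7 from 28376784 to 28380253. Its FPKM was 15.0, 5.88, 4.89 and 5.55 in WT1 to WT4 and 12.4, 7.06, 7.75 and 5.73 in KO1 to KO4. WT1 and KO1 were the highest libraries, so that Zfp36 was highest in the library in which Jun, Junb, Ier2, Nr4a1 and Dusp1 were lowest. WT1 was also the library with the highest neutrophil marker level (10988 FPKM). KO3 came next with 5716 FPKM and had 7.75 FPKM of Zfp36, whereas KO1, with 3870 FPKM, had 12.4 FPKM of Zfp36. The part of these cells in the Zfp36 level was not tested. Over all libraries Zfp36 had a log2 fold change of 0.17 (95% interval -0.69 to 1.04, exact permutation p = 0.629), and without WT1 it was 0.54 (exact permutation p = 0.114). Of its 50-base words, 1.76% also occur in transcripts of other genes.

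The order of the mean WT levels was Dusp1 (20.1 FPKM), Jun (11.1), Nr4a1 (7.92), Zfp36 (7.84), Fos (7.09), Ier2 (6.54), Junb (6.50), Egr1 (4.20), Atf3 (2.25) and Fosb (0.655). From Nr4a1 to Junb the means lay between 6.50 and 7.92 FPKM with SDs of 2.37 to 4.81 FPKM. The order of these 5 neighbours, measured in the same libraries, was not tested. In KO the order was Dusp1, Jun, Ier2, Junb, Zfp36, Fos, Nr4a1, Egr1, Atf3 and Fosb, with Ier2 at 11.3 FPKM and Junb at 10.996 FPKM.

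The immediate early genes did not move as a block across the libraries. Among the 45 pairs of genes, Pearson's r of log2(FPKM + 0.1) over the 8 libraries ran from -0.878 to 0.908 with a median of 0.265, and 15 pairs were below 0. Without WT1 the median was -0.0375 and 23 pairs were below 0. These correlations are descriptions, and all points of a pair share their library. Fos and Fosb had the highest r, 0.908, and it was 0.948 without WT1. Jun and Junb had an r of 0.900, which became 0.276 without WT1. Fos and Atf3 ran in opposite directions with an r of -0.816, and -0.825 without WT1. Fos and Jun went from -0.202 to -0.941 without WT1. Nr4a1 and Zfp36 had the lowest r over the 8 libraries, -0.878, which was -0.740 without WT1.

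**Figure D3:**
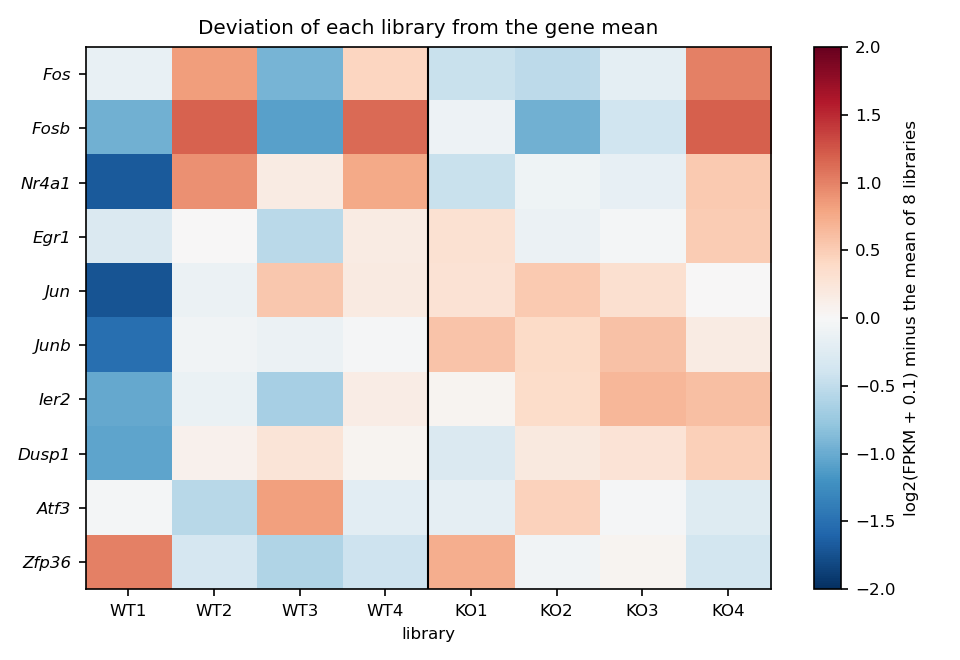
Log2(FPKM + 0.1) of each immediate early gene (rows) minus its mean over the 8 libraries, as a colour (red above, blue below the mean), in each library (columns, WT left of the line and KO right). WT1 is blue for Nr4a1, Jun, Junb, Ier2 and Dusp1 and red for Zfp36, and Fos, Fosb and Nr4a1 are red in WT2, WT4 and KO4.

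Fos, Fosb and Nr4a1 had WT2, WT4 and KO4 as their 3 highest libraries. Since these 3 libraries were singled out after the values of these genes had been seen, the counts that follow are descriptions. Over all tested genes 8.74% had the same 3 libraries on top. Of the other 58 tested early response genes, 3 did so (5.17%, below the share over all tested genes), namely Npas4, Nr4a3 and Dusp5. Npas4, an activity-induced neuronal factor, had 1.18, 0.832 and 0.759 FPKM in WT2, WT4 and KO4 and 0.137 to 0.349 FPKM in the other 5 libraries. For Nr4a3, a relative of Nr4a1, the values were 2.31, 1.40 and 2.23 FPKM against 0.537 to 0.974.

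Chaperone genes, which respond to heat and unfolded protein, had their lowest summed level in these 3 libraries, while 10 of the 16 single genes did not have all 3 lowest there. The summed level of the 16 heat shock and chaperone genes was 701, 741 and 723 FPKM in WT2, WT4 and KO4 and 966 to 1297 FPKM in the other 5 libraries. WT2, WT4 and KO4 were the 3 lowest libraries for 6 of the 16 genes (Hsph1, Dnajb1, Dnajb4, Hspb1, Hsp90aa1 and Bag3), against 1.66% of all tested genes. Among the 10 immediate early genes this held for Atf3. Between genotypes 1 of the 16 was called, against 5.12% of all tested genes. It was Hspd1, a mitochondrial chaperonin (log2 fold change 0.50, limma adjusted p = 0.947). Hspa1a, an inducible chaperone, had a log2 fold change of 1.07 and was not called. The number called depended on single libraries. It was 6 higher without KO4, in a fit that called 775 of 14996 genes higher, and 3 without WT3. It was 2 without WT1, in a fit that called 12.1% of all tested genes higher, and 0 without any one of WT2, WT4, KO1, KO2 and KO3. It was 0 with median-ratio scaling or quantile normalization, and 1 lower with the GC trend removed.

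**Figure D4:**
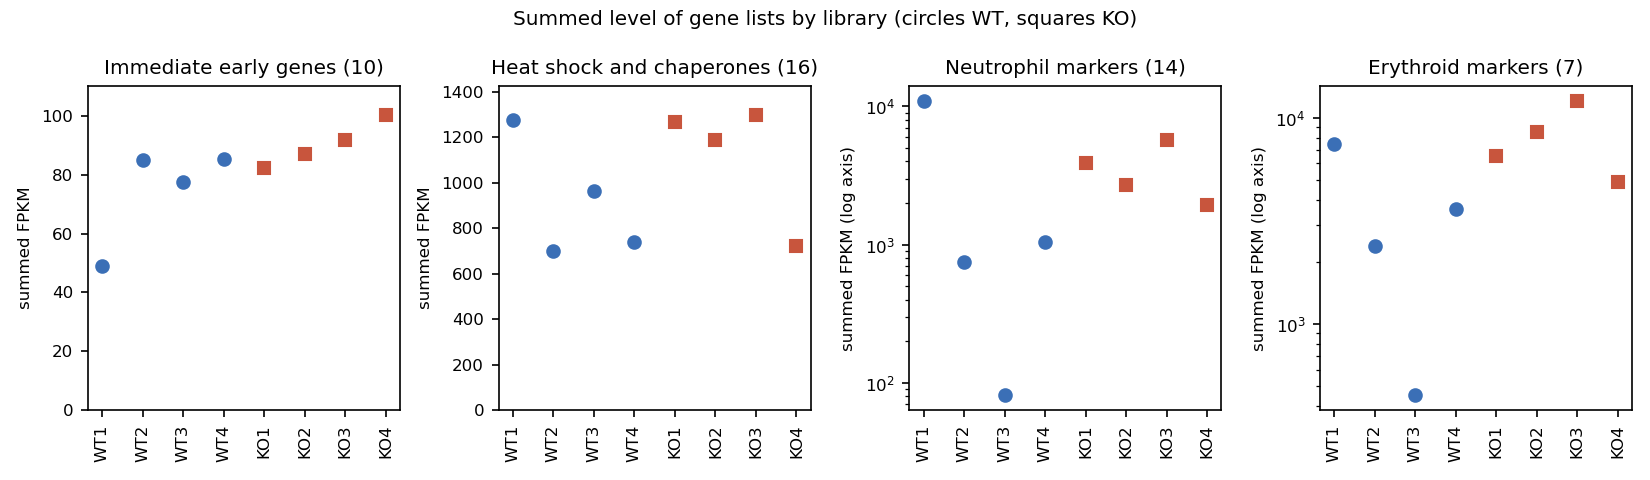
Summed FPKM (y axis, logarithmic in the 2 right panels) of the 10 immediate early genes, 16 heat shock and chaperone genes, 14 neutrophil markers and 7 erythroid markers in each library (x axis), with WT as circles and KO as squares. The chaperone level is 701 to 741 FPKM in WT2, WT4 and KO4 and 966 to 1297 FPKM elsewhere, and WT1 has the lowest immediate early gene sum (49.0 FPKM) and the highest neutrophil sum.

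WT1 stood apart for most of the 10 genes. It was the lowest library for Jun, Junb, Ier2, Nr4a1 and Dusp1, and the highest for Zfp36. Over all tested genes 52.1% were lowest in WT1, so 5 of 10 is near this background. The distance of WT1 from the mean of WT2 to WT4 moved with the GC content of the transcript. Its median was -0.18 on the log2 scale over 749 genes below 40% GC and -1.36 over 772 genes above 60% GC. Junb, with 62.6% GC, lay at -1.43, and Ier2, with 60.9% GC, at -0.81. Jun and Nr4a1, with 55.5% and 57.0% GC, lay at -1.92 and -2.29, further than the median of genes of like GC content (-0.44 at 52 to 56% and -0.70 at 56 to 60%). Zfp36, with 54.1% GC, lay at 1.45.

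**Figure D5:**
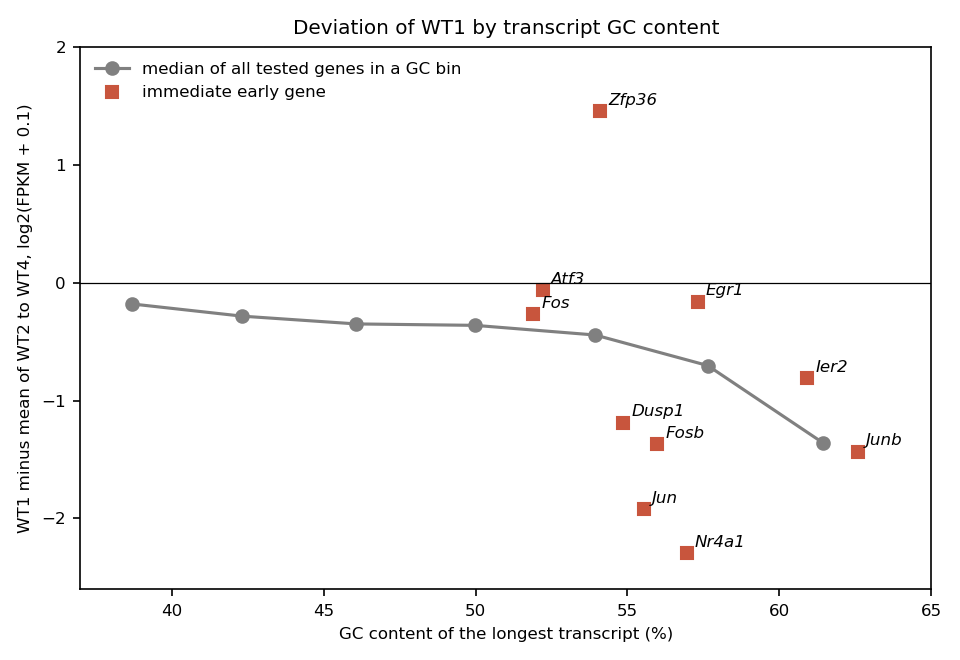
Log2(FPKM + 0.1) in WT1 minus the mean of WT2 to WT4 (y axis) against the GC content of the longest transcript in percent (x axis), with the median of all tested genes in 7 GC bins in grey and each immediate early gene as a red square. The grey line falls from -0.18 to -1.36, Junb lies close to it, and Jun, Nr4a1, Fosb and Dusp1 lie below it.

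When a smooth trend with GC content was removed from each library, a step added after the data had been seen, Junb and Ier2 remained the called genes of the 10. The log2 fold change of Junb was then 0.51 and that of Ier2 was 0.55. Over all genes 5.71% were called in that fit and 1.86% were higher in KO, 278 higher and 576 lower in KO, in place of 691 higher and 76 lower. With median-ratio scaling the calls were 401 higher and 362 lower, the median log2 fold change of all genes moved from 0.10 to 0.00, and Junb and Ier2 were again called.

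Early response genes outside the 10 were described from a list of 61, of which 58 were tested. Of these, 15 were called and all 15 were higher in KO, against 4.61% of all tested genes, and the median log2 fold change was 0.32. The smallest p-values were those of Dusp2 and Mcl1. Dusp2, a nuclear phosphatase of the same family as Dusp1, had 1.08, 1.11, 0.424 and 1.18 FPKM in WT1 to WT4 and 2.02, 6.39, 3.03 and 3.55 in KO1 to KO4, and the groups did not overlap. Its log2 fold change was 1.84 (standard error 0.42, limma adjusted p = 0.922). Mcl1, a short-lived survival protein of the Bcl2 family, rose from 32.9 to 36.5 FPKM in WT to 42.6 to 54.1 FPKM in KO, with a log2 fold change of 0.52 (limma adjusted p = 0.922). The number called was 8 higher and 1 lower with median-ratio scaling, 7 higher with the GC trend removed and 20 higher and 2 lower without WT1. Over all tested genes, 401 were called higher and 362 lower with median-ratio scaling. The share called higher was 1.86% with the GC trend removed. Without WT1 it was 12.1%, with 7.4% called lower. Without KO2 the early response genes called numbered 9, and without KO3 they numbered 8, all higher. In these 2 fits 323 and 292 of all tested genes were called higher. Expression of the B lineage markers, with 5 of 8 called higher, and of 7 erythroid markers, with 2 called higher, moved in the same direction, and their part in the early response genes was not tested. The erythroid count was 7 of 7 without WT1, 1 without WT4 or KO4, and 0 without any one of the other 5 libraries, with median-ratio scaling, with the GC trend removed or with the replicate block. The B lineage count was 3 without KO2 and 7 without WT1. Their summed levels were 34.4 to 64.2 FPKM in WT and 64.5 to 118 FPKM in KO for the B lineage, and 449 to 7459 FPKM and 4898 to 12086 FPKM for erythroid cells.

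The factors and kinases that act on immediate early promoters were described from a list of 24. Of these, 2 were called higher and 1 lower, against 4.61% higher and 0.507% lower of all tested genes. Their median log2 fold change was 0.00, against 0.10 over all tested genes. The count was 0 in both directions without KO2 or without KO3, 2 higher and 0 lower without WT1 or KO4, and 1 higher and 0 lower without WT2 or WT3. Elk4, a partner of SRF, had a log2 fold change of 0.51 (limma adjusted p = 0.947) and its groups did not overlap, at 17.1 to 29.6 FPKM in WT and 31.1 to 39.3 FPKM in KO. Mapk14, the p38 kinase, had a log2 fold change of 0.46 (limma adjusted p = 0.947). Srf, Elk1 and Creb1 did not pass, with log2 fold changes of 0.17, -0.13 and 0.31.

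Among 17 tested genes of the remaining AP-1, ATF and Maf families, 4 were called and all were higher in KO, against 4.61% of all tested genes. Fosl1, Fosl2, Jund, Maff and Mafk are also in the list of early response genes, so the 2 counts are not separate results. The count was 4 without WT1, in a fit that called 12.1% of all tested genes higher. It was 2 without KO1, 1 without KO3, and 2 with quantile normalization or with the GC trend removed. The smallest p-values were those of Mafk, a small Maf protein (log2 fold change 0.83), and Jdp2, a Jun dimerization protein (log2 fold change 0.45). Both had an adjusted p of 0.947. Mafk was separate between the groups, at 2.71 to 5.84 FPKM in WT and 7.13 to 9.92 FPKM in KO. Of 12 glucocorticoid-induced genes 1 was called, against 5.12% of all tested genes. It was Tsc22d3, at 20.7 to 29.7 FPKM in WT and 25.9 to 88.3 FPKM in KO (log2 fold change 0.98, limma adjusted p = 0.947). The glucocorticoid count was 3 without WT3 or KO4, 2 without WT2, and 1 higher and 1 lower without WT1. Per1, Sgk1 and Errfi1 of the glucocorticoid list are also in the list of early response genes. Of 12 acute cytokine and chemokine genes 7 were tested and 0 were called at the unadjusted threshold, and 2 were called higher without WT1. Il1b, the interleukin with the smallest p-value among them, had 10.3, 0.533, 2.42 and 0.594 FPKM in WT1 to WT4 and 6.34, 2.58, 3.95 and 2.20 in KO1 to KO4, and like Zfp36 it was highest in WT1 and KO1.

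The 5 genes whose pattern over the 8 libraries was most like the mean of the 10 immediate early genes were Hip1r, Dnmt3a, Chd4, Dmpk and Brf1, with Pearson's r of 0.997, 0.989, 0.983, 0.980 and 0.978. Without WT1 these values were 0.992, 0.959, 0.933, 0.942 and 0.941. The 5 were picked from all tested genes by the highest r, so high values follow from the choice. The values without WT1 come from libraries that were used in that choice. Of the 10 genes themselves, Nr4a1 and Ier2 had the highest r with this mean, 0.853 and 0.850, and Atf3 and Zfp36 were negative at -0.371 and -0.621. Each of the 10 is itself part of this mean.

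The spread between libraries was large for these genes. The SD of log2(FPKM + 0.1) among WT libraries was above the median of all tested genes (0.416) for 9 of the 10 genes, and among KO libraries above the median (0.242) for 8 of the 10. All 10 genes had a larger SD in WT than in KO, as had 77.7% of all tested genes. Fosb varied most, with an SD of 1.26 in WT and 0.918 in KO.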

How the data were processed

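Cochlear RNA of 4 WT and 4 KO libraries was analysed. The authors aligned their paired reads by Hisat2, and the deposited table gives FPKM for each gene in each library, while the tool, annotation and strand setting behind the FPKM are not given in the sources used here. The submitters' processing notes name mm9, whereas 19771 of the 21895 loci in the deposited table equal those of GENCODE mouse release 21 on GRCm38. The study tested counts with DESeq2, which were not used here. FPKM carry no counts, so counting error is unknown. From the steps of values under 0.1 FPKM the relative depth of the libraries was 0.952 to 1.17 of their median. Total FPKM was 249221 to 288695.

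The log2 of FPKM plus 0.1 was fitted with limma 3.58.1 in R 4.3.3 (genotype as factor, variance trend) over genes averaging 0.5 FPKM or more, and the p-values were adjusted over all 14990 genes. The step was tested on simulated data with independent noise for each gene and the same SD in WT and KO. No simulated library stood apart as WT1 did, so that test cannot show how the step behaves with such a library. Exact permutation tests of single genes were added after the data had been seen. GC content and 3′-UTRs came from the longest coding transcript, and exon bases from all annotated transcripts of a gene. Of tested genes 99.7% had a GC value. Named genes are the 10 genes, Srf, Elk1 and Creb1, the 2 smallest p-values of each list, and the 5 genes most like the mean. Npas4, Nr4a3 and genes given for WT2, WT4 and KO4 were named after their values were seen. The genes and lists were chosen with earlier results of these data known. Alternatives were a pseudocount of 1, no filter, a minimum of 1 FPKM, 2 scalings, no variance trend, a replicate block, 6 libraries, leaving out each library, and removal of a GC trend. No per-sample column was unused (0).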

Additional observations from a re-analysis of the deposited data

Results flagged for a closer look

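Of 146 groups of 4 libraries examined, 10 had a library whose gap to its nearest neighbour exceeded 0.829 of the group's range, where chance flags about 1 in 20 groups. Among the immediate early genes all of them concerned WT1, with 2.80 FPKM for Junb against 7.47 to 7.97 in the other WT libraries, 10.2 FPKM for Dusp1 against 22.1 to 25.5, and 15.0 FPKM for Zfp36 against 4.89 to 5.88. Mafk in WT1 was at 2.71 FPKM against 5.66 to 5.84. In KO4, Hspd1 was at 38.8 FPKM against 62.2 to 68.6, the 16 heat shock and chaperone genes summed to 723 FPKM against 1190 to 1300, and Dnmt3a was at 29.3 FPKM against 23.7 to 24.6. Dusp2 in WT3 was at 0.424 FPKM against 1.08 to 1.18. Prtn3, a neutrophil protease, was at 75.2 FPKM in KO3 against 30.8 to 33.9, and Myh4, a fast muscle myosin, was at 0.692 FPKM in WT4 against 0.0184 to 0.0337. The causes were not tested.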

How the results depend on the processing

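Ier2 was called in all 17 alternatives and Junb in 14, each higher in KO. The number of the 10 genes called was 2 under each alternative that kept all libraries and with 6 libraries, and 1 to 3 when a library was left out. The median log2 fold change of the 10 stayed within 0.06 to 0.31 when a library was left out. With the replicate number as a block, 2 of the 10 and 838 of all genes were called. After subtraction of each genotype's mean per gene, same-numbered libraries had correlations of 0.419, -0.240, -0.170 and 0.210. The numbers were therefore not taken as pairs. The number of all genes called ran from 347 (without KO3) to 2922 (without WT1), and was 377 without KO2. The called early response genes numbered 9 with median-ratio scaling, 7 with the GC trend removed and 8 to 22 when a library was left out. The sign of Atf3 turned with a pseudocount of 1 (-0.012), median-ratio scaling (-0.10), quantile normalization (-0.18) and the GC trend removed (-0.17), and ran from -0.18 to 0.27 when a library was left out. For Zfp36 it was -0.0062 with the GC trend removed and -0.043 to 0.54 when a library was left out. The corresponding ranges were -0.44 to 0.18 for Fos, -0.56 to 0.23 for Fosb and -0.65 to 0.22 for Nr4a1. Fosb could not be fitted with a minimum of 1 FPKM or with 6 libraries. After adjustment limma called 0 genes over all 8 libraries (767 before it), 3 with no filter, 1 with 6 libraries and 1 without WT4. With quantile normalization 378 genes were called higher and 547 lower. The counts of the other gene lists also moved with single libraries and scalings, most often for the erythroid list (15 of 17 alternatives) and the chaperones (12 of 17). The causes of these shifts, fewer samples among them, were not tested.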

Other observations

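Jund, the Jun family member with the highest level, was looked at after its values had been seen. WT1 had 9.71 FPKM, whereas the other 7 libraries had 57.6 to 68.6 FPKM, and its transcript, with 67.2% GC, lies above the GC content of all 10 immediate early genes. Its log2 fold change was 0.71 (exact permutation p = 0.257). Cebpd and Gadd45a, also chosen after their values were seen, early genes of the acute phase and of growth arrest, had KO values above all WT values, with log2 fold changes of 0.83 and 0.87. Among stria vascularis markers, Bsnd and Tyr were called lower in KO, with log2 fold changes of -0.89 and -0.65, and among fibroblast markers Col1a2 was called higher, with 1.16. At the unadjusted threshold 5.12% of all tested genes were called. The other marker lists had 0 called (neutrophil, macrophage, endothelial, neuron, hair cell and glia) or 1 called (muscle and bone, both higher). These counts depended on single libraries. Without WT1, 14 of 14 neutrophil markers were called higher, with a median log2 fold change of 3.33. So were 4 of 10 macrophage, 5 of 10 bone, 1 of 8 endothelial, 1 of 8 fibroblast and 1 of 9 muscle markers. Called lower were 1 of 9 neuron, 1 of 6 glia, 5 of 8 stria and 2 of 8 fibroblast markers. In that fit 12.1% of all tested genes were called higher and 7.4% lower. Without KO4, 4 macrophage and 2 bone markers were called. The muscle count was 7 without KO2, 3 without WT4, 2 without KO1 and 0 without WT2, WT3 or KO4, and the macrophage count was 1 without WT2 or WT4. The stria count was 0 without WT3 and 1 without WT4, KO1 or KO3.
Of the remaining named genes, Cdkn1a, a cell cycle inhibitor, and Osm, a cytokine, were not called, with log2 fold changes of 0.49 and 0.51.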
